A study of Drosophila ananassae with 54 samples.

Results

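The hindgut of SlowBKK, a cold-sensitive line of Drosophila ananassae from Bangkok, was compared between cold-acclimated and control adult males in 6 of the 54 RNA-seq libraries of the series, 3 a side, chosen by their labels. Cold-acclimated SlowBKK flies were held at 10 °C for 4 days, from the day after they left the pupal case, and then had 90 min of recovery. Control SlowBKK flies spent the same 4 days at their rearing temperature of 22 °C. Each library came from the pooled hindguts of 60 males, and the line is itself a pool of 4 isofemale lines, each the descendants of a single wild female. The cold libraries therefore differ from the control libraries by temperature and by recovery, which cannot be told apart. For comparison, FastBKK, a cold-tolerant line from Bangkok pooled from 4 isofemale lines, and KATH, a cold-tolerant line from Kathmandu pooled from 3, gave hindguts under the same treatments. SlowBKK gave Malpighian tubules, also from 60 males a library, and bodies, from 10. Of the 14365 genes in the table, 11323 had enough counts to be tested in the hindgut.

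The hindgut is the last stretch of the insect gut. It receives the primary urine made by the Malpighian tubules together with the gut contents, and its epithelium takes back ions, water and metabolites before the rest is excreted. In insects that are injured by chilling, ion and water balance fails in the cold and potassium builds up in the haemolymph. The hindgut and the tubules are the organs that set this balance. Genes carry here the FlyBase annotation symbols of D. ananassae (GF numbers). None of them matched the reference gene table used here, so no gene function is given and genes are placed by scaffold only.

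Libraries held 33.4, 33.9 and 33.2 M counts in the cold (replicates 1, 2 and 4) and 40.4, 33.9 and 31.8 M in the control (replicates 1, 2 and 5), within the 30.7 to 48.8 M of the whole series. The first principal component, with 65.4% of the variance, separated the cold libraries from the control libraries. The second, with 15.0%, separated control replicate 5 from control replicate 1. Nothing in the labels says that replicates were separate cultures, so p-values measure the spread between these libraries. As a check of the tissue, 256 genes were found at 5 times or more the level of tubule and body in FastBKK and KATH flies. Their median level in SlowBKK hindgut was 105% of that in the hindguts of the other lines, and in SlowBKK tubule 0.258% of that in SlowBKK hindgut. Body transcripts were compared between libraries on genes chosen as scarce in FastBKK and KATH hindgut. Tissue carried along with every hindgut would not show in them. Over 593 genes abundant in body and under 1 CPM (counts scaled to library size) in FastBKK and KATH hindgut, the median level was 0.0428%, 0.0346% and 0.0988% of the body level in the cold libraries, against 0.0316%, 0.0364% and 0% in the control libraries. FastBKK control hindgut replicate 3 stood apart, at 6.93% of the body level. Counts of genes shared with FastBKK or differing from it are given with and without this library. Other FastBKK values include it unless stated.

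The cold changed about every other gene tested in SlowBKK hindgut. Of 11323 genes, 5859 (51.7%) differed between cold and control at an adjusted p under 0.05 (edgeR quasi-likelihood F test, Benjamini-Hochberg adjustment). In the cold 2975 genes (26.3%) were higher and 2884 (25.5%) were lower. The scaling between libraries (TMM) takes most genes as unchanged, so rises and falls are relative to the bulk of genes. Its factors were 1.09, 1.12 and 1.16 in the cold libraries, against 0.871, 0.893 and 0.899 in the control libraries. Most of the changes were modest: the median size was 0.83 on the log2 scale among genes that rose and 0.78 among genes that fell. The larger the change, the more it lay on the rising side. Changes over 2-fold were 1236 rises (10.9% of tested genes) and 1094 falls (9.66%), over 8-fold 233 rises and 113 falls, and over 16-fold 128 rises and 49 falls. Fitted folds of genes at 0 or near it are no bounds. All control libraries held at most 3 counts in 83 of the 233 rises over 8-fold and in 57 of the 128 over 16-fold, and all cold libraries did in 25 of the 113 falls and 20 of the 49. The other genes gave 150 rises and 88 falls over 8-fold, and 71 rises and 29 falls over 16-fold. Among called genes, the cold libraries all lay above the control libraries in 2896 (25.6% of tested genes) and all below them in 2822 (24.9%), 5718 (50.5%) together. Whatever the p, the groups did not overlap in 63.3% of tested genes.

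**Figure D1:**
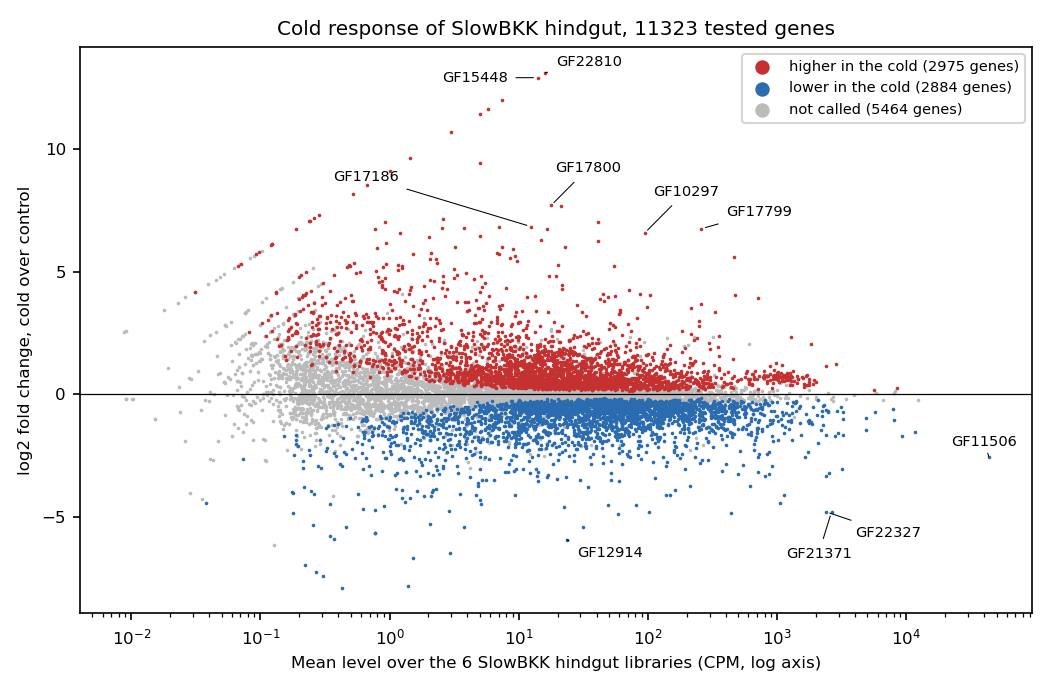
Each point is 1 of the 11323 tested genes, with its mean level over the 6 SlowBKK hindgut libraries (CPM, log axis) on the x axis and its log2 fold change, cold over control, on the y axis. The 2975 genes that rose (red) reach fold changes above 13 log2 units at low to middle levels, and the 2884 genes that fell (blue) include GF11506, the gene at the far right.

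The strongest rises that were even across libraries belonged to genes that were scarce in control hindgut. GF17799 (FBgn0094817, scaffold_13340) had 603, 522 and 418 CPM in cold hindguts, against 6.23, 5.06 and 2.94 CPM in control hindguts. It rose by 6.75 ± 0.40 on the log2 scale (standard error, adjusted p = 2.41e-08). The lowest cold library lay far above the highest control library.

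GF17800, which carries the next symbol on the same scaffold, had 38.01, 36.2 and 32.0 CPM in the cold, against 0.398, 0.0331 and 0.0350 CPM in the control. It rose by 7.70 ± 0.55 on the log2 scale (adjusted p = 2.21e-07). Its counts were 6.30%, 6.94% and 7.65% of those of GF17799 in the same cold library, against 6.39%, 0.654% and 1.19% in the control libraries, where it had 14, 1 and 1 counts. Whether reads were shared between these neighbours was not tested.

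GF10297 (FBgn0087338, scaffold_13337) had 198, 178 and 184 CPM in cold hindguts, against 3.58, 1.19 and 0.980 CPM in control hindguts. It rose by 6.58 ± 0.57 on the log2 scale (adjusted p = 3.58e-07). GF17186 (FBgn0094204, scaffold_13340) had 30.9, 23.8 and 19.2 CPM in the cold, against 0.313, 0.0662 and 0.245 CPM in the control, and rose by 6.84 ± 0.49 on the log2 scale (adjusted p = 7.01e-08). Its counts were 2.41% to 3.14% of those of its neighbour by symbol, GF17187, in the cold libraries, against 0.326% to 2.98% in the control libraries, and shared reads were not tested here either. In all 4 genes the cold libraries lay within 2-fold of each other and every control library was below 10 CPM. Each of the 4 also rose in FastBKK and KATH hindgut. GF17799, for example, rose there by 7.74 ± 0.43 and 7.65 ± 0.43, and its SlowBKK response was not called different from either (adjusted p = 0.343 and 0.349).

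The other 4 of the 8 largest folds were uneven across the cold libraries, and all 4 genes were body genes, with at least 5 times the level in FastBKK and KATH body that they had in the organs. GF22810 (FBgn0099804, scaffold_12943) had 15.3, 0.475 and 80.6 CPM in cold replicates 1, 2 and 4, and no count in any control library. With the control set at a floor of 3 counts per library, the cold mean was at least 333-fold higher (adjusted p = 0.000573), and at least 81.8-fold higher without cold replicate 4. GF15448 (FBgn0092473, scaffold_12916) had 0.358, 0.0792 and 83.5 CPM in the cold and no count in the control. Cold replicate 4 alone set its fold. Without that library its adjusted p was 0.0871, and DESeq2 gave it no adjusted p. GF24871 (FBgn0101864, scaffold_12943) had 51.9, 3.72 and 42.0 CPM in the cold, against 0.284, 0.463 and 0.140 CPM in the control, and rose by 6.76 ± 1.12 on the log2 scale (adjusted p = 0.000138). GF22810, GF15448 and GF24871 were not called in FastBKK or KATH hindgut (adjusted p from 0.111 to 0.893). Of their differences in response, only that of GF22810 from KATH was called (adjusted p = 0.046). In cold SlowBKK body they fell, with log2 fold changes of -0.88, -1.02 and -0.80 (adjusted p = 0.000554, 0.00148 and 0.0156).

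GF15813 (FBgn0092837, scaffold_12916), the fourth body gene, was higher in every cold library, with 20.5, 79.9 and 25.3 CPM, against 0.142, 0.298 and 0.175 CPM in the control. It rose by 7.66 ± 1.48 on the log2 scale (adjusted p = 0.000522), and it rose in FastBKK hindgut by 3.09 ± 1.10 (adjusted p = 0.0322), where control replicate 3 was high, and in KATH hindgut by 6.96 ± 1.58 (adjusted p = 0.00219). It was already abundant in SlowBKK body, with 138 ± 10.7 CPM in cold flies and 112 ± 4.74 CPM in control flies (SD, n = 3 each).

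Spread of this kind among libraries was counted over all genes with a mean of at least 1 CPM. Among the cold libraries 149 of 9528 genes differed more than 5-fold, and among the control libraries 325 did. Of 435 body genes, 72 differed that much in the cold, 64 of them highest in cold replicate 4, and 43 in the control. Of 402 tubule-enriched genes, 24 did so in the cold, 22 of them highest in cold replicate 2, and 26 in the control. None of the 256 hindgut-enriched genes did in the cold, and 1 did in the control. The summed level of the 593 genes confined to body was 93.6, 79.5 and 204.6 CPM in cold replicates 1, 2 and 4, against 67.0, 66.5 and 56.7 CPM in the control libraries, so cold replicate 4 stood highest. Of these, 17, 13 and 23 genes were above 1 CPM in the cold, against 8, 6 and 5 in the control. The part of carried-over body tissue in the rises of body genes was not tested.

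The deepest falls were more even. GF22327 (FBgn0099325, scaffold_13248) had 158, 148 and 197 CPM in cold hindguts, against 4568, 4810 and 4449 CPM in control hindguts. It fell by 4.78 ± 0.19 on the log2 scale (adjusted p = 6.06e-10), which is to a level 27.5-fold lower. GF21371 (FBgn0098373, scaffold_13117) had 196, 187 and 171 CPM in the cold, against 4781, 5061 and 5435 CPM in the control, and its fold change was -4.79 ± 0.23 on the log2 scale (adjusted p = 2.63e-09). In both genes every control library was more than 20 times the level of any cold library.

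GF11734 (FBgn0088774, scaffold_13266) had 36.9, 29.3 and 23.4 CPM in the cold, against 887, 988 and 691 CPM in the control, with a log2 fold change of -4.84 ± 0.46 (adjusted p = 7.52e-07). GF15817 (FBgn0092841, scaffold_12916) had 6.78, 9.93 and 4.62 CPM in the cold, against 139.8, 227 and 223 CPM in the control, a log2 fold change of -4.79 ± 0.46 (adjusted p = 9.48e-07). GF20786 (FBgn0097792, scaffold_13117) had 1.93, 1.77 and 1.59 CPM in the cold, against 41.0, 42.9 and 44.8 CPM in the control, a log2 fold change of -4.60 ± 0.30 (adjusted p = 3.69e-08). All 5 of these genes were hindgut-enriched in the other lines.

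The remaining 3 of the 8 deepest falls were not hindgut-enriched. GF12914 (FBgn0089948, scaffold_13266) had 1.13, 0.607 and 0.548 CPM in the cold, against 99.9, 18.03 and 20.7 CPM in the control, where replicate 1 stood about 5-fold above the others. Its log2 fold change was -5.92 ± 1.17 (adjusted p = 0.000623). GF11029 (FBgn0088069, scaffold_13266), a tubule-enriched gene, had 1.10, 1.77 and 1.51 CPM in the cold, against 83.8, 61.6 and 37.8 CPM in the control, a log2 fold change of -5.38 ± 0.69 (adjusted p = 1.32e-05). GF23312 (FBgn0100306, scaffold_12911) had 1.598, 5.07 and 4.80 CPM in the cold, against 99.6, 144 and 95.9 CPM in the control, a log2 fold change of -4.88 ± 0.38 (adjusted p = 1.28e-07). Each of the 8 genes also fell in FastBKK and in KATH hindgut. Fewer cells of a type and less RNA per cell cannot be told apart in such bulk samples.

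**Figure D2:**
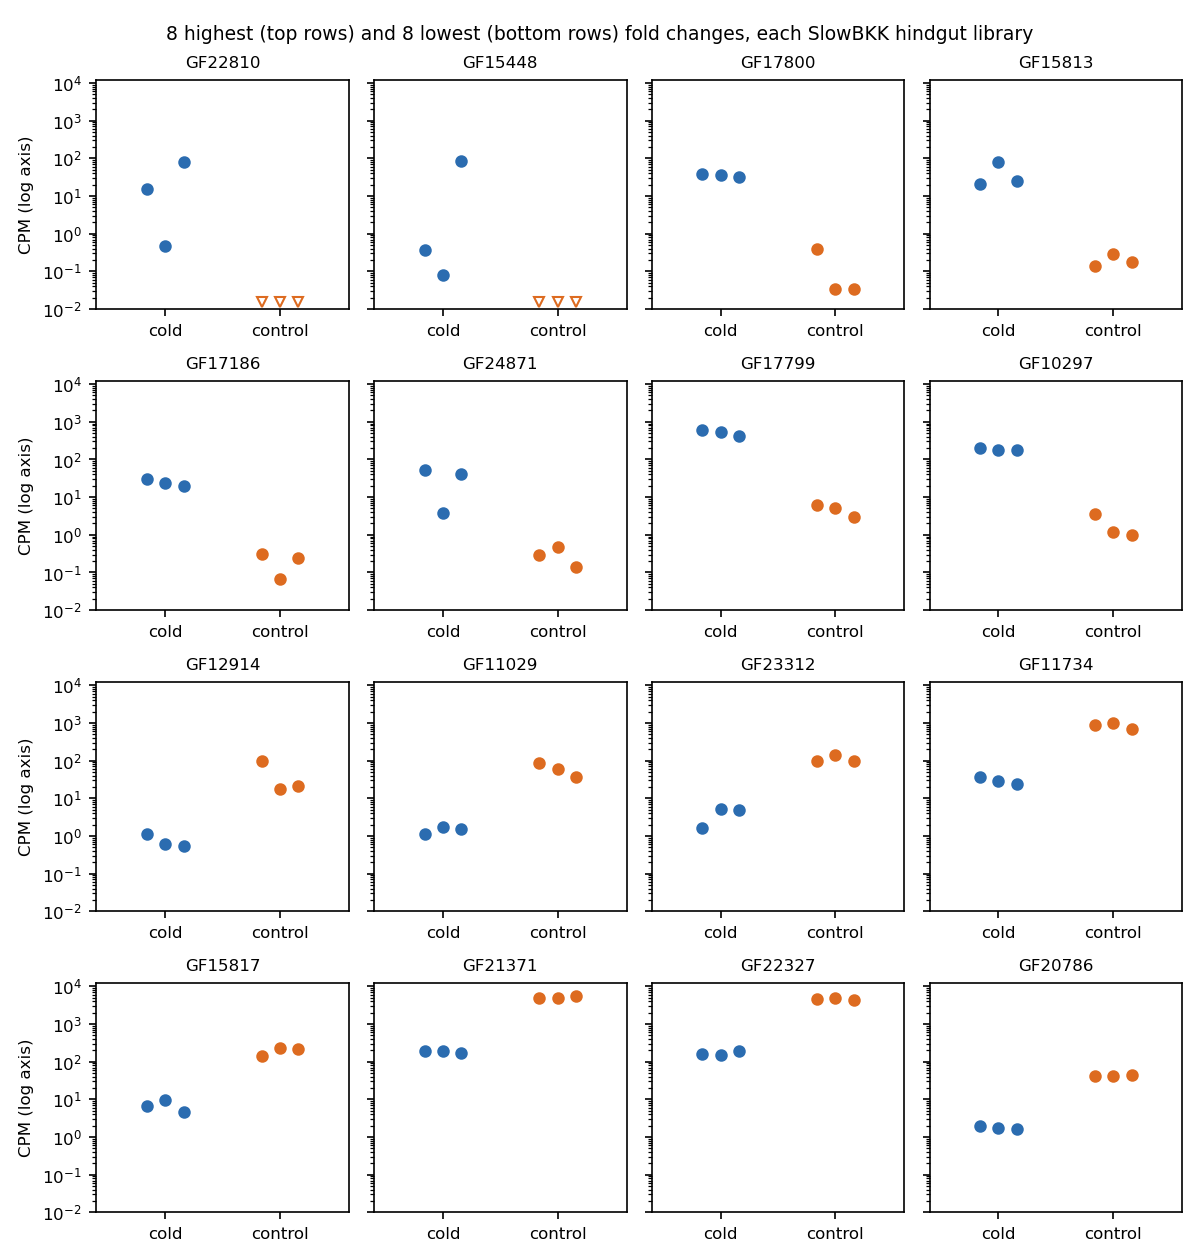
Every panel shows 1 gene, with its level in each of the 3 cold (left, blue) and 3 control (right, orange) SlowBKK hindgut libraries in CPM on a log axis; open triangles mark libraries with no count. The top rows are the 8 highest folds, where GF22810 and GF15448 span more than 2 steps of the log axis among cold libraries, and the bottom rows are the 8 lowest, where cold and control libraries lie far apart.

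A single fall changed the make-up of the libraries. GF11506 (FBgn0088546, scaffold_13266) took 1.58%, 1.43% and 1.31% of all counts in the cold libraries, against 7.29%, 6.67% and 5.76% in the control libraries. In CPM it had 14490, 12760 and 11340 in the cold, against 83710, 74720 and 64040 in the control, and fell by 2.53 ± 0.17 on the log2 scale (adjusted p = 5.38e-08). The gene was hindgut-enriched, with 0.234 ± 0.207 CPM in cold and 0.733 ± 0.815 CPM in control SlowBKK tubules (SD, n = 3 each). Together the 10 most abundant genes took 9.57%, 8.72% and 8.72% of counts in the cold, against 16.1%, 15.0% and 14.1% in the control. More genes were detected in the cold: 11542, 11508 and 11776 genes were over 3 counts in cold libraries, against 11097, 10988 and 11005 in control libraries. The 3 counts stood for 0.0783 to 0.0826 CPM in the cold and for 0.0853 to 0.105 CPM in the control. Cold replicate 4, with the most genes, also held the most body transcript.

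The other 4 of the 5 largest falls in CPM were also hindgut-enriched genes. GF27724 (FBgn0274947) averaged 5930 ± 978 CPM in the cold and 17270 ± 1654 CPM in the control, and GF27217 (FBgn0274440) averaged 4450 ± 647 CPM in the cold and 14180 ± 1462 CPM in the control (SD, n = 3 each). Their log2 fold changes were -1.54 ± 0.17 and -1.67 ± 0.15 (adjusted p = 2.45e-06 and 3.92e-07). GF23817 (FBgn0100811) averaged 5214 ± 354 CPM in the cold and 10790 ± 582 CPM in the control, with a log2 fold change of -1.05 ± 0.15 (adjusted p = 2.88e-05). GF17049 (FBgn0094068) had 661, 801 and 645 CPM in the cold, against 5954, 4947 and 6238 CPM in the control, a log2 fold change of -3.02 ± 0.33 (adjusted p = 2.67e-06). No cold library overlapped a control library in any of these genes.

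The largest rises in CPM were smaller than the largest falls. GF17649 (FBgn0094667, scaffold_13340) had 4691, 3667 and 3648 CPM in the cold, against 1738, 1658 and 1725 CPM in the control, and rose by 1.23 ± 0.09 on the log2 scale (adjusted p = 1.24e-07). GF12605 (FBgn0089641, scaffold_13266) had 3818, 3196 and 2991 CPM in the cold, against 1521, 1456 and 1447 CPM in the control, and rose by 1.18 ± 0.09 (adjusted p = 1.34e-07). In both genes cold replicate 1 was the highest and every cold library was above every control library.

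A pair of consecutive symbols on scaffold_12916 was among these rises too. GF14586 (FBgn0091613) had 3518, 3038 and 2369 CPM in the cold, against 1000, 736 and 402 CPM in the control, and rose by 2.06 ± 0.28 on the log2 scale (adjusted p = 2.43e-05). GF14585 (FBgn0091612) had 2381, 2091 and 2002 CPM in the cold, against 598, 400.5 and 267 CPM in the control, and rose by 2.35 ± 0.28 (adjusted p = 6.54e-06). In both genes the control libraries differed more than 2-fold among themselves and still lay below every cold library.

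GF16196 (FBgn0093218, scaffold_13340) completed the 5 largest rises, with 9573, 9650 and 8671 CPM in the cold, against 8208, 7858 and 7274 CPM in the control. Its log2 fold change was only 0.26 ± 0.09 (adjusted p = 0.0287), and without cold replicate 1 the adjusted p was 0.0611. Among abundant genes that were not called, GF12208 (FBgn0089247) averaged 8209 ± 726 CPM in the cold and 7960 ± 511 CPM in the control (SD, n = 3 each), with a log2 difference of 0.04 ± 0.09 (adjusted p = 0.704). GF12892 (FBgn0089926) averaged 11290 ± 1656 CPM in the cold and 13210 ± 1270 CPM in the control, with a log2 difference of -0.23 ± 0.18 (adjusted p = 0.3).

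Genes were next grouped by where FastBKK and KATH flies have them. The SlowBKK libraries took no part in the grouping, while the FastBKK and KATH hindgut libraries share the filter and the estimate of spread with the SlowBKK contrast. Hindgut-enriched genes tended to be lower in the cold. Of these 256 genes, all of them tested, 144 (56.2%) fell and 39 (15.2%) rose, with a median log2 fold change of -0.64, beside 25.5% falling, 26.3% rising and a median of 0.03 over all tested genes. Falls over 2-fold numbered 97 and rises over 2-fold 29. The other lines shared this: 52.3% of the same genes fell in FastBKK hindgut and 54.7% in KATH hindgut. Over all tested genes 23.1% and 23.0% fell there, though those lines also drew the groups. Abundance was not matched, and in the quartile of tested genes with the highest mean CPM 43.1% fell in SlowBKK. Leaving out each SlowBKK hindgut library in turn gave 130 to 144 falls. The share depended on how the group was drawn. From control libraries of the other lines alone, 182 of 299 genes (60.9%) fell. From their cold libraries alone, 113 of 352 genes (32.1%) fell and 58 (16.5%) rose, with a median of -0.14.

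Tubule-enriched genes moved less, with 140 of 442 tested genes (31.7%) lower, 86 (19.5%) higher and a median of -0.20. Carry-over was compared on 57 genes confined to tubule, which were chosen as scarce in FastBKK and KATH hindgut. Their median was 0.0412%, 0.191% and 0.0482% of the tubule level in cold hindguts, against 0.0503%, 0.175% and 0.0349% in control hindguts. Replicate 2 of each treatment was the highest. Genes enriched in both hindgut and tubule counted 12 lower and 3 higher of 24, with a median of -0.63. Body-enriched genes passed the filter on low counts in only 1013 of 2069 cases. Of those, 152 (15.0%) rose and 78 (7.7%) fell, beside 26.3% and 25.5% of all tested genes, with a median of 0.59. Without cold replicate 4, which held the most body transcript, 1337 were tested, 102 (7.63%) rose and 64 (4.79%) fell, and the median was 0.33. Over all 11756 genes of that fit 2723 rose and 2441 fell. Without FastBKK control replicate 3, 257 (24.9%) of 1034 rose and 88 (8.51%) fell, beside 3200 and 3055 of all 11445. The shares moved with the filter. With none, 157 (7.59%) of 2069 rose and 69 (3.33%) fell, beside 2937 and 2676 of all 14130. In a fit of the compared groups alone, 200 (28.7%) of 696 rose and 73 (10.5%) fell, beside 3036 and 2839 of all 10580. Genes with no enrichment split almost evenly, with 2695 rises and 2510 falls among 9588, a balance that the scaling between libraries favours.

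**Figure D3:**
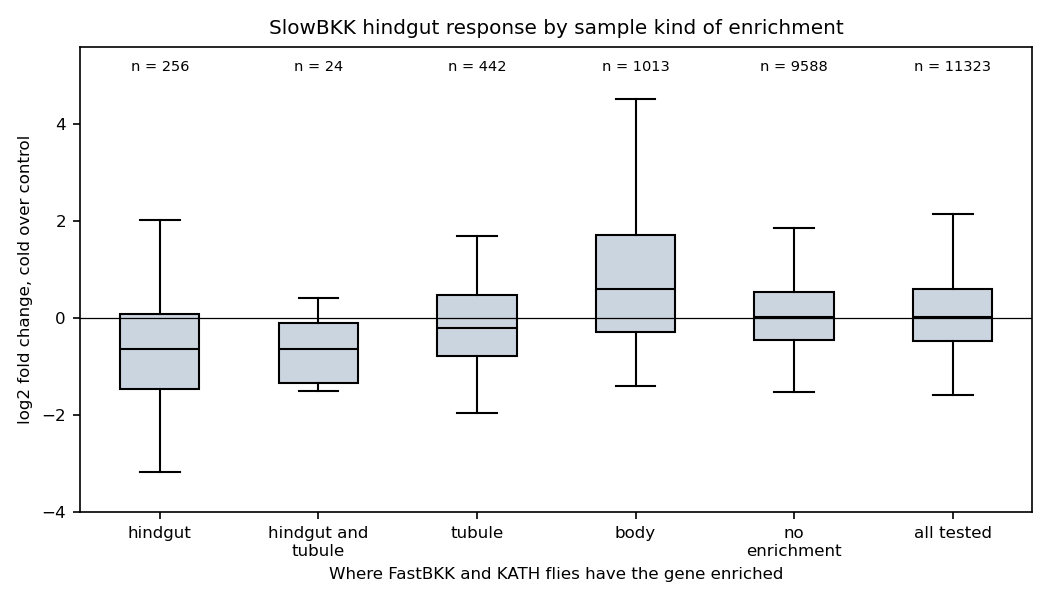
Boxes show the middle quartiles and the median, and whiskers the 5th to 95th percentile, of the log2 fold change (cold over control, y axis) in SlowBKK hindgut for genes grouped by where FastBKK and KATH flies have them enriched (x axis). The median is -0.64 for the 256 hindgut-enriched genes, 0.59 for the 1013 tested body-enriched genes and 0.03 for all 11323.

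The direction of change went with abundance. In the quartile of tested genes with the highest mean CPM, 43.1% fell and 22.7% rose, with a median log2 fold change of -0.20. In the lowest quartile, 10.1% fell and 17.4% rose, with a median of 0.34. CPM is not scaled by gene length here. The shift was smaller across gene length, where 29.2% of genes in the shortest quartile rose and 20.8% fell, while 21.8% rose and 29.5% fell in the longest quartile.

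Some genes crossed the limit of detection. There were 92 genes at or under 3 counts in all 3 control libraries, over 3 counts in every cold library and called higher, and 24 of them averaged at least 1 CPM in the cold. In the other direction, 20 genes were at or under 3 counts in all cold libraries, over it in every control library and called lower, and 5 of them averaged at least 1 CPM in the control. Genes this scarce under 1 treatment passed the filter on low counts only through other hindgut libraries. Both counts therefore follow in part from the filter. Over a floor of 3 counts, the cold mean of the 92 genes was at least 1.48-fold to 333-fold higher. Of the 92 genes, 18 were body-enriched, as were 1013 of the 11323 tested genes. The most abundant of the 92 were uneven and highest in cold replicate 4: GF22810, GF20814, GF20478, GF10668 and GF10345. GF20814 had 5.12, 0.766 and 38.5 CPM in the cold, and GF20478, with no enrichment, 5.56, 0.317 and 28.5 CPM. Neither had a count in the control. Genes of the 92 that were even across libraries included GF11192 (FBgn0088232), with 2.53, 7.13 and 5.79 CPM in the cold and at most 0.105 CPM in a control library. It was at least 53.4-fold higher. GF13502 (FBgn0090531) had 2.26, 2.75 and 2.19 CPM in the cold and at most 0.0662 CPM in a control library. The genes named here were picked after their values were seen.

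The cold-tolerant lines shared most of this response. Of the genes called in SlowBKK hindgut, 4182 were called in FastBKK hindgut with the same sign, 71.4% of the SlowBKK calls and 79.0% of the FastBKK calls, and 15 with the opposite sign. For KATH, 4136 genes were shared with the same sign, 70.6% of the SlowBKK calls and 80.0% of the KATH calls, and 31 were opposite. In these lines 46.7% and 45.7% of the tested genes were called. Without FastBKK control replicate 3, the same-sign share with FastBKK was 71.2% of the SlowBKK calls and 85.8% of the FastBKK calls.

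Sizes of response were compared on genes chosen from a line outside each pair. Among 2564 genes that rose in KATH, the median rise was 0.77 in SlowBKK and 0.72 in FastBKK, and among 2606 genes that fell in KATH, the median was -0.71 in SlowBKK and -0.60 in FastBKK. The response was the larger in SlowBKK for 57.3% of the risers and 63.0% of the fallers. Among genes chosen by FastBKK, it was larger in SlowBKK than in KATH for 60.2% of 2676 risers and 54.3% of 2616 fallers. Without FastBKK control replicate 3 these shares ran from 55.5% to 63.0%. They are given as a description, and the difference in overall size was not tested.

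Gene by gene, differences between the lines were tested as interactions. The SlowBKK response differed from that of FastBKK in 65 genes (0.574% of those tested), 19 (0.168%) with a higher and 46 (0.406%) with a lower value in SlowBKK. It differed from that of KATH in 231 genes (2.04%), 122 (1.08%) higher and 109 (0.963%) lower. Of 1073 genes called in SlowBKK and in neither other line, 6 had a called difference from FastBKK and 24 from KATH. These counts moved with the tool and with single libraries. DESeq2 called 434 genes against FastBKK and 799 against KATH. Leaving out 1 library of the compared lines at a time gave 6 to 96 genes against FastBKK and 65 to 259 against KATH. Without FastBKK control replicate 3, the counts were 27 against FastBKK and 332 against KATH, and of 1068 genes called in SlowBKK and in neither other line, 2 and 35 had a called difference.

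In 24 genes the SlowBKK response differed from both other lines in the same direction. Both differences share the SlowBKK libraries. DESeq2, which called more genes against either line on the same counts, called all 24. Leaving out FastBKK control replicate 3 gave 16 such genes, 10 of them among the 24. In the fits that each left out 1 library of the compared lines, GF15653, GF12740, GF14075 and GF20786 were called every time and the others were not. With replicate number as a block, described at the end, none of the 24 was called against both lines. By kind, 8 of the 24 rose in all 3 lines and least in SlowBKK, 3 rose in all lines and most in SlowBKK, 4 fell in all lines and most in SlowBKK, 2 went in opposite directions, 2 were called in SlowBKK alone, 3 in SlowBKK and 1 other line, and 2 were not called in SlowBKK.

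GF15653 (FBgn0092677, scaffold_12916) changed direction. It had 10.4, 15.7 and 18.3 CPM in SlowBKK cold hindguts, against 37.0, 34.3 and 32.2 CPM in SlowBKK control hindguts, a log2 fold change of -1.22 ± 0.21 (adjusted p = 0.0002). In FastBKK it averaged 2.14 ± 0.44 CPM in the cold and 0.580 ± 0.0725 CPM in the control, and in KATH 2.76 ± 0.35 CPM in the cold and 0.645 ± 0.204 CPM in the control (SD, n = 3 each). The gene was thus far more abundant in SlowBKK under either treatment and rose in the cold only in the lines where it was scarce. The differences in response were -3.10 ± 0.33 log2 units against FastBKK and -3.31 ± 0.32 against KATH (adjusted p = 0.000599 and 0.000203).

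GF12740 (FBgn0089774, scaffold_13266), a hindgut-enriched gene, had 30.5, 40.8 and 43.5 CPM in SlowBKK cold hindguts, against 215, 247 and 204 CPM in SlowBKK control hindguts. Its log2 fold change was -2.54 ± 0.22 in SlowBKK, 0.29 ± 0.20 in FastBKK and -0.70 ± 0.20 in KATH. The SlowBKK cold libraries were the lowest of the hindgut libraries. The differences in response were -2.83 ± 0.29 against FastBKK and -1.84 ± 0.29 against KATH (adjusted p = 0.000599 and 0.00525).

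GF20786, among the 8 deepest falls, averaged 1.76 ± 0.17 CPM in SlowBKK cold and 42.9 ± 1.87 CPM in SlowBKK control hindguts. In FastBKK it averaged 5.47 ± 1.88 CPM in the cold and 13.97 ± 3.66 CPM in the control, and in KATH 4.34 ± 0.96 CPM in the cold and 24.7 ± 7.62 CPM in the control. Its SlowBKK response exceeded the falls of both other lines, with differences of -3.25 and -2.09 log2 units (adjusted p = 0.00113 and 0.0121). GF14075 fell by 3.86 ± 0.28 on the log2 scale in SlowBKK, by 1.31 ± 0.24 in FastBKK and by 1.83 ± 0.25 in KATH (adjusted p of the differences 0.00783 and 0.0112). GF14075 was scarce and was picked after its values were seen. It averaged 0.293, 2.05 and 1.52 CPM in cold hindguts of SlowBKK, FastBKK and KATH, and 4.30, 5.11 and 5.41 CPM in their control hindguts.

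Smaller differences were called in GF15303 and GF23540. GF15303 (FBgn0092328, scaffold_12916) had 41.6, 40.1 and 39.7 CPM in SlowBKK cold hindguts, against 18.3, 20.1 and 21.1 CPM in the control, a rise of 1.03 ± 0.08 that exceeded FastBKK by 0.73 ± 0.12 and KATH by 1.02 ± 0.12 (adjusted p = 0.0226 and 0.000905). GF23540 (FBgn0100534, scaffold_12943) had 102, 111 and 114 CPM in the cold, against 26.2, 28.4 and 28.1 CPM in the control. Its rise of 1.98 ± 0.09 exceeded FastBKK by 0.70 ± 0.12 and KATH by 0.95 ± 0.12 (adjusted p = 0.0248 and 0.00136). In both genes the cold level was highest in SlowBKK, and every SlowBKK control library was below every FastBKK control library. Control means were 19.8, 23.1 and 18.8 CPM in SlowBKK, FastBKK and KATH for GF15303. For GF23540 they were 27.6, 33.6 and 29.4 CPM. Against FastBKK, GF15303 lost its call in 3 and GF23540 in 4 of 12 fits that each left out 1 library.

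**Figure D4:**
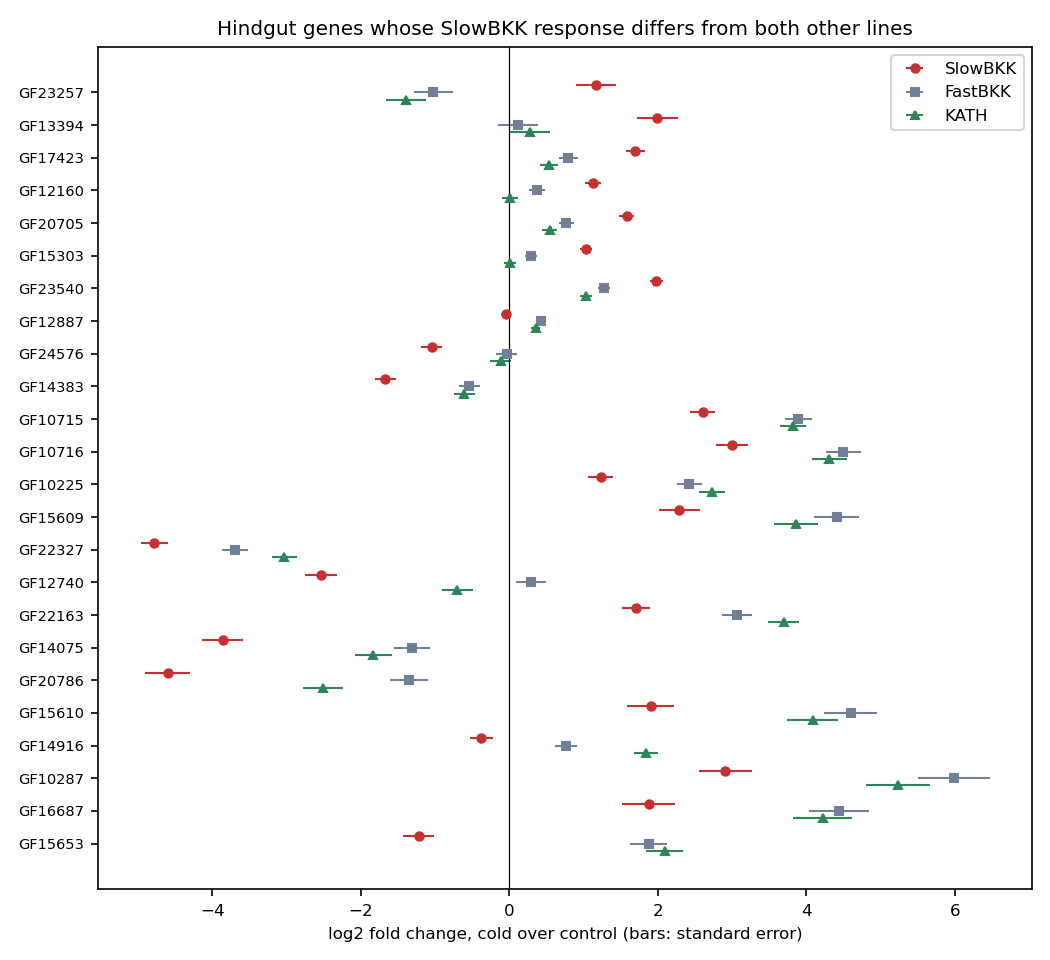
For the 24 genes whose SlowBKK response differed from both other lines with 1 sign, the log2 fold change (cold over control, x axis) is plotted with its standard error in SlowBKK (circle), FastBKK (square) and KATH (triangle). GF15653 and GF23257 have opposite signs in SlowBKK, and the group around GF10715 and GF15609 rises in all lines and least in SlowBKK.

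Among the 8 genes that rose least in SlowBKK were the consecutive symbols GF10715 and GF10716 (scaffold_13337) and GF15609 and GF15610 (scaffold_12916), described here after their values were seen. In the cold GF10715 averaged 313 ± 56.6 CPM in SlowBKK, 312 ± 27.8 CPM in FastBKK and 327 ± 33.7 CPM in KATH. In the control it averaged 51.4 ± 6.45 CPM in SlowBKK, 21.0 ± 3.94 CPM in FastBKK and 23.2 ± 3.41 CPM in KATH (SD, n = 3 each). The smaller rise thus went with a higher control level in SlowBKK, and the cold levels of the lines overlapped.

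The other 3 genes had the same layout. GF15609 averaged 399.5 ± 51.5, 424.5 ± 130 and 359 ± 55.2 CPM in cold hindguts of SlowBKK, FastBKK and KATH, and 81.7 ± 30.9, 20 ± 2.97 and 24.6 ± 4.04 CPM in their control hindguts. GF15610 had control ranges of 43.4 to 109 CPM in SlowBKK, 11.1 to 19.4 CPM in FastBKK and 12 to 20.9 CPM in KATH. For GF10716 these ranges were 42.5 to 67.7, 14.7 to 26.1 and 18.3 to 26.7 CPM. In all 4 genes every SlowBKK control library was above every control library of the other lines. Without FastBKK control replicate 3, the differences from FastBKK of GF15609 and GF15610 were called (adjusted p = 0.0471 and 0.0335) and those of GF10715 and GF10716 were not (adjusted p = 0.0572 and 0.0735). That of GF15609 against KATH (-1.58, adjusted p = 0.0454) was called in 1 of the 12 fits with a library left out.

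GF23257 (FBgn0100251, scaffold_12911) and GF13394 (FBgn0090426, scaffold_13266) were lower in SlowBKK controls than in the other lines. GF23257 had 28.6, 26.4 and 25.2 CPM in SlowBKK cold hindguts, against 10.4, 12.5 and 12.7 CPM in the control, and rose by 1.17 ± 0.27, while its log2 fold change was -1.02 ± 0.27 in FastBKK and -1.39 ± 0.27 in KATH. GF13394 had 186, 111 and 121 CPM in SlowBKK cold hindguts, against 31.9, 32.3 and 40.9 CPM in the control, and rose by 1.99 ± 0.28, while its log2 difference was 0.11 ± 0.27 in FastBKK and 0.28 ± 0.27 in KATH. Their differences from FastBKK had adjusted p = 0.0501 and 0.0809 without FastBKK control replicate 3. The SlowBKK cold libraries of GF13394 overlapped the cold libraries of both other lines.

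**Figure D5:**
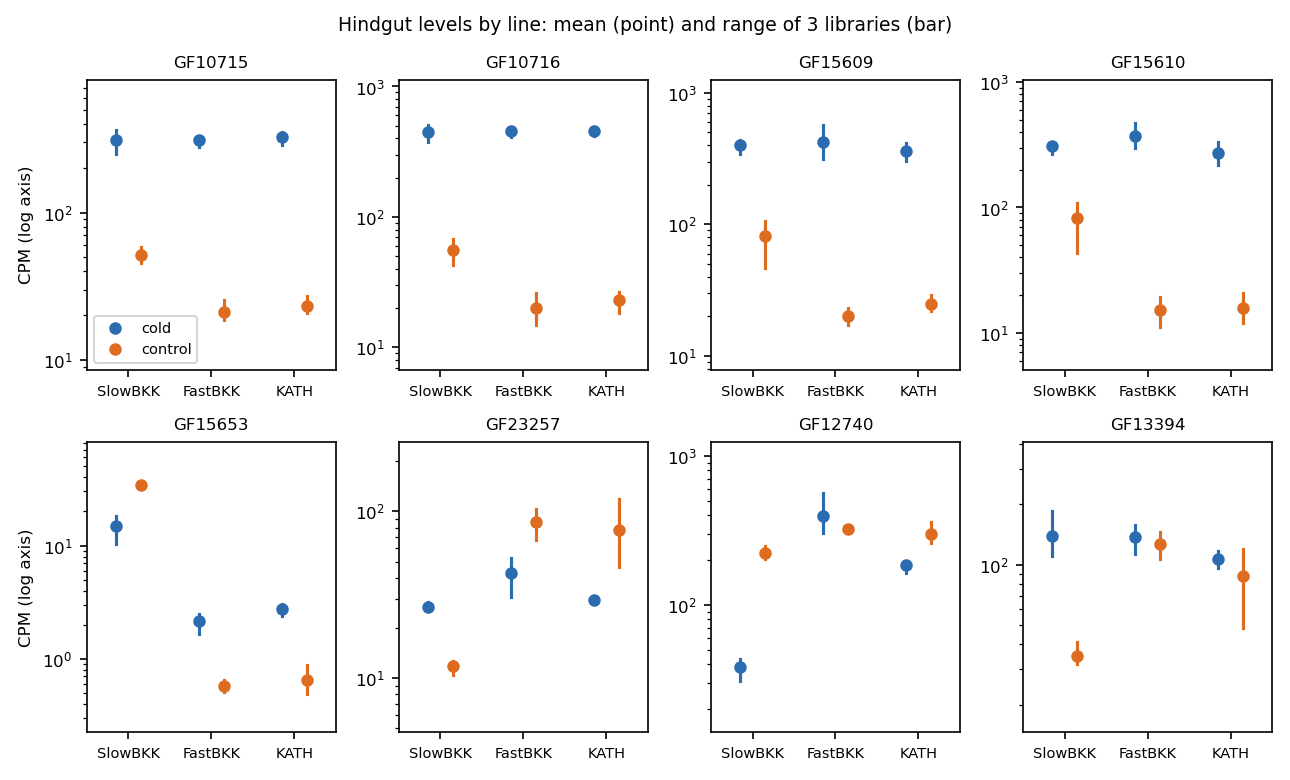
Points give the mean and bars the range of 3 hindgut libraries in CPM (log axis) for 8 genes in SlowBKK, FastBKK and KATH, cold (blue) left of control (orange). For GF10715, GF10716, GF15609 and GF15610 the cold levels of the lines overlap and the SlowBKK control is the highest of the controls.

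Within SlowBKK, the hindgut and the Malpighian tubule responded differently in 2599 of 11942 genes (21.8%) by the interaction test in a fit of 36 libraries, 1195 with a higher and 1404 with a lower response in the hindgut. Of 9841 genes tested in both organs, 2618 were called in both with 1 sign, 49.4% of the hindgut calls and 56.6% of the tubule calls, and 329 with opposite signs. In the tubule 46.4% of tested genes were called. With SlowBKK body, whose RNA came from another kit, 3399 of 11220 genes tested in both were called with 1 sign, 58.3% of the hindgut calls and 59.5% of the body calls, and 339 with opposite signs, where 47.4% of tested genes were called in the body. GF18713 (FBgn0095730, scaffold_13340) had 213, 160 and 147 CPM in cold hindguts, against 54.7, 37.2 and 91.1 CPM in control hindguts. In tubules it had 20.9, 15.0 and 28.6 CPM in the cold, against 92.2, 124 and 151 CPM in the control. The gene rose in the hindgut and fell in the tubule with no overlap in either organ, and the difference in response was 4.02 ± 0.43 log2 units (adjusted p = 1.98e-07).

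GF18194 (FBgn0095212, scaffold_13340) rose by 0.38 ± 0.12 on the log2 scale in the hindgut (adjusted p = 0.0172) and by 6.05 ± 0.49 in the tubule (adjusted p = 2.88e-07). It had 158.5, 172 and 164 CPM in cold hindguts, against 128, 141 and 126 CPM in control hindguts, and in tubules 86.6, 43.5 and 59.0 CPM in the cold, against 1.31, 0.329 and 1.21 CPM in the control. The difference in response was -5.71 ± 0.48 (adjusted p = 5.21e-09). GF11027 (FBgn0088067) had 175, 223 and 227 CPM in cold hindguts, against 172, 171 and 240.4 CPM in control hindguts. Its tubule levels were 20.6, 15.9 and 31.6 CPM in the cold, against 0.356, 0.0657 and 0.310 CPM in the control, and the difference was -6.40 ± 1.66 (adjusted p = 0.00593).

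GF14655 (FBgn0091682, scaffold_12916), a hindgut-enriched gene, had 796.5, 771 and 813.5 CPM in cold hindguts, against 1672, 1383 and 1440 CPM in control hindguts. In tubules it had 18.4, 30.4 and 84.9 CPM in the cold, against 0.238, 0.263 and 0.869 CPM in the control. The difference in response was -7.52 ± 1.02 (adjusted p = 5.76e-06). Over the 256 hindgut-enriched genes, the median level in tubules was 0.236%, 0.263% and 0.266% of the SlowBKK hindgut level in cold tubules, against 0.289%, 0.2% and 0.132% in control tubules.

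GF14475 (FBgn0091502, scaffold_12916) had 517, 695 and 752 CPM in cold hindguts, against 864, 797 and 941 CPM in control hindguts. In tubules it had 0.471, 2.69 and 1.09 CPM in the cold, against 19.8, 23.2 and 36.8 CPM in the control. The hindgut change was thus much the smaller, and the difference in response was 3.82 ± 0.62 (adjusted p = 5.5e-05). GF16549 (FBgn0093570, scaffold_13340) had 11.8, 9.395 and 89.2 CPM in cold hindguts, against 0.672, 1.40 and 3.12 CPM in control hindguts. In tubules it had 142, 198 and 229 CPM in the cold, against 191, 93.3 and 199.6 CPM in the control. The difference of 4.19 ± 1.07 (adjusted p = 0.00538) leaned on cold hindgut replicate 4, without which it was 2.39 with an adjusted p of 0.0718.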

How the data were processed

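The deposited values are raw counts per gene and library with gene length, per the file headers. FastQC 0.11.9 is named in the submitters' processing notes. Per the labels' protocols, libraries were made by poly-A enrichment. Aligner, counter, build and strand use are not given in the sources used here. Replicates of a group differed by more than sampling noise, with a chi-square per degree of freedom of at least 28.0, so none was merged.

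The 18 hindgut libraries were fitted together with edgeR 4.0.16 in R 4.3.3 (filterByExpr, TMM, glmQLFit and glmQLFTest, two-sided, Benjamini-Hochberg over all tested genes, called at adjusted p under 0.05), with 1 coefficient per line and treatment. Differences between lines, and between hindgut and tubule in 36 libraries, were interaction contrasts. CPM values are TMM-scaled, errors are SE unless marked SD, and floors of 3 counts cover counting error only. Gene lists were not run because 0 symbols matched the reference. The code was tested on simulated counts. DESeq2 1.42.0 and the other alternatives are described at the end.

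Genes named were the 8 highest and 8 lowest folds (called, no overlap, mean of at least 10 CPM), the 5 largest rises and falls in CPM, 4 genes differing from both lines, the 3 highest and 3 lowest against tubule (10 CPM in both organs) and abundant genes not called. Others are marked. Tissue groups needed 10 CPM and 5 times each other sample kind, leaving out FastBKK control hindgut replicate 3. Members, rules and groups were chosen with earlier results of these data known.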

Additional observations from a re-analysis of the deposited data

Results flagged for a closer look

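Differences in cold response that passed an interaction test (edgeR quasi-likelihood, adjusted p) put the following genes here. In GF15653 the SlowBKK hindgut response differed by -3.10 log2 units from FastBKK and by -3.31 from KATH. In GF12740 the differences were -2.83 and -1.84. In GF15303 they were 0.73 and 1.02, and in GF23540 they were 0.70 and 0.95. Without FastBKK control replicate 3, the 4 differences from FastBKK were -3.01, -2.81, 0.74 and 0.67 and were all called. Against FastBKK, GF15303 and GF23540 lost the call without SlowBKK control replicate 1 (adjusted p = 0.0615 and 0.0746), without SlowBKK control replicate 2 (0.0793 for each) and without FastBKK cold replicate 4 (0.0628 for each). GF23540 also lost it without SlowBKK cold replicate 4 and in a fit of SlowBKK and FastBKK alone (adjusted p = 0.0588 for each). With the replicate number as a block, all 4 genes lost both calls, with adjusted p from 0.0875 to 0.203.

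Between hindgut and tubule of SlowBKK, the hindgut response was higher by 4.19 log2 units in GF16549, by 4.02 in GF18713 and by 3.82 in GF14475. The difference was -7.52 in GF14655, -6.40 in GF11027 and -5.71 in GF18194.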

How the results depend on the processing

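Leaving out FastBKK control replicate 3, a library outside both contrasts, gave 6255 genes in the cold response and 2721 against tubule. Other size factors, no low-count filter, removal of a gene length trend and leaving out FastBKK control replicate 3 kept the counts of the SlowBKK cold response (5859), of SlowBKK against KATH (231) and of hindgut against tubule (2599) within 1.5 times, and the first 3 of these did so for SlowBKK against FastBKK (65). Requiring a change over 2-fold left 2330, 125 and 1205 genes in the cold response, against KATH and against tubule. DESeq2 called 434 genes against FastBKK and 799 against KATH. A fit of the 12 libraries of SlowBKK and FastBKK alone called 29. Leaving out 1 library of the compared groups at a time gave 5043 to 5543 genes in the cold response, 2172 to 2332 against tubule, 6 to 96 against FastBKK and 65 to 259 against KATH. Against FastBKK, counts fell to 23 and 6 without FastBKK cold replicates 3 and 4, to 32, 27 and 18 without its control replicates 1, 3 and 4, to 21 and 11 without SlowBKK cold replicates 1 and 4, and to 7 and 6 without SlowBKK control replicates 1 and 2. Against KATH they fell to 138, 123 and 111 without KATH cold replicates 1, 3 and 4, to 92 and 118 without its control replicates 4 and 5, to 136, 122 and 87 without SlowBKK cold replicates 1, 2 and 4, and to 66 and 65 without SlowBKK control replicates 1 and 2. Each of these fits also had fewer libraries, and the cause of the lower counts was not tested.

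With replicate number as a block within line, 4078 genes were called in the cold response, 2271 against tubule, 0 against FastBKK (1183 at an unadjusted p under 0.05, DESeq2 434 without the block) and 1 against KATH. Among 1013 body-enriched genes 66 (6.52%) rose and 52 (5.13%) fell under the block, beside 1953 rises and 2125 falls among all 11323 tested genes. None of the 24 genes that differed from both lines was then called against both. Only numbers 1 and 2 occur on both sides in SlowBKK hindgut, and the deviations of same-numbered libraries correlated at -0.01 and 0.27. Replicate 2 of each treatment also held the most tubule transcript, at 0.191% of the tubule level in the cold and 0.175% in the control. Whether equal numbers mark a shared preparation was not tested. Of 681 recomputed values for named genes, 652 kept their call, 28 lost it, 1 gained it (GF13105, adjusted p = 0.0439 with the length trend removed) and 0 changed sign. GF16196 lost its call under the block (adjusted p = 0.154) and without single libraries. Hindgut-enriched genes at 10 times the other sample kinds gave 78 falls (65.5%) and 16 rises (13.4%) of 119. The body-enriched group drawn so gave 114 rises (13.8%) and 40 falls (4.84%) of 826 tested (median 0.72). Over all tested genes 26.3% rose and 25.5% fell. Planned product-name gene lists were not run.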

Other observations

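The cold response was also read along consecutive gene symbols, with no test. Over 7496 pairs of tested neighbours, the second gene rose in 31.1% of pairs whose first gene rose and in 26.6% of pairs whose first gene fell. It fell in 30.1% of pairs whose first gene fell and in 23.2% of pairs whose first gene rose. With symbols 2 apart the shares of rises were 29.3% and 28%. Symbol order stands in for position here, and shared reads between neighbours were not tested.

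There were 7 runs of 4 consecutive symbols with changes over 2-fold in 1 direction, 4 higher and 3 lower in the cold, and none was longer. GF10297 to GF10300 (scaffold_13337) rose by 1.18 to 6.58 on the log2 scale. GF14583 to GF14586 (scaffold_12916) rose by 1.56 to 2.70. GF16962 to GF16965 (scaffold_13340) are a run of scarce genes: GF16964 had 1.18, 3.04 and 1.25 CPM in the cold, against 0.0569, 0.0331 and 0.0350 CPM in the control, at least 18.9-fold higher. GF16963 had 0.826, 2.08 and 0.548 CPM in the cold and at most 0.0993 CPM in a control library, and GF16965 had 0.744, 1.61 and 0.731 CPM in the cold and at most 0.0700 CPM in a control library. GF16962 had 0.248, 0.264 and 0.0783 CPM in the cold and no count in the control, at least 2.04-fold higher. All cold libraries were above all control libraries in these 4 genes, though cold replicate 4 of GF16962 stood at the floor of 3 counts. GF12584 to GF12587 (scaffold_13266), of which 3 are body-enriched, rose by 1.63 to 5.56. GF14075 to GF14078 (scaffold_12916) fell, with log2 fold changes of -4.39 to -1.03, as did GF15801 to GF15804 (scaffold_12916), with -2.64 to -1.06, and GF23782 to GF23785 (scaffold_13337), with -2.58 to -1.69. These runs were picked after their values were seen.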
